A study of Mus musculus with 12 samples.

Results

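Rarres1, retinoic acid receptor responder 1, is a membrane glycoprotein of the latexin family whose gene was first found as one induced by a synthetic retinoid. It was described here with 8 further genes of the retinoid pathway, namely Rarres2, the receptors Rara, Rarb and Rarg, the binding proteins Crabp1 and Crabp2, the retinoic acid hydroxylase Cyp26b1 and the retinaldehyde dehydrogenase Aldh1a2. The 9 genes were taken by symbol from an expression table of 17922 genes, and all 9 had a row. Rarres1 was chosen because it was lower in both knockouts of the study, so its knockout values are given as a description without a test. The other 8 genes were picked for their place in the pathway, with earlier results of these data known.

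The cells were primary rib chondrocytes, the cartilage cells of the rib cage, freed with collagenase and cultured overnight before RNA was taken. The LDH knockout carried Col2-Cre:Ldha(fl/fl):Ldhb+/-, that is, loss of both Ldha alleles in cells with Cre and of 1 Ldhb allele, and came from mice at postnatal day 5 (P5). The Acly knockout carried Col2-Cre:Acly(fl/fl) and came from embryos at E18.5. Ldha and Ldhb encode lactate dehydrogenase subunits, which turn pyruvate into lactate at the end of glycolysis, and Acly encodes ATP citrate lyase, which makes acetyl-CoA outside mitochondria. Each knockout had its own littermate controls, and the labels do not say whether these carried Col2-Cre or floxed alleles. All animals had a C57BL/6-dominant mixed background. Col2-Cre acts where the type II collagen promoter is active, so other cells in a culture keep the floxed gene. Each of the 4 groups held 3 samples. The study asked what reduced glycolysis and reduced cytoplasmic acetyl-CoA do in skeletal development. Stage and knockout go together, so the knockouts were each compared with their own controls. The labels do not say that samples of a group came from separate animals, and p-values therefore measure only the spread between these samples.

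Retinoic acid is made from retinol, which travels in blood on Rbp4, by oxidation to retinaldehyde and then, by the Aldh1a enzymes, to the acid. The acid is carried in the cell by the Crabp proteins, binds receptors of the Rar family, which pair with Rxr proteins on DNA, and is broken down by the Cyp26 enzymes. In cartilage the gamma receptor is the prominent Rar, and retinoic acid promotes the late maturation of chondrocytes and the turnover of their matrix, while Cyp26b1 limits the signal in the developing skeleton.

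The classical response element of these receptors is a direct repeat of a half-site of 6 bases, here AGGTCA or the related AGTTCA or GGGTCA or GGTTCA, with 1, 2 or 5 bases between the copies. Windows of 300 bases, from 250 before to 50 after a transcription start (RefSeq, build GRCm38.p6), were searched on both strands. A repeat was found in 0.588% of all 32851 windows, and at least 1 half-site in 43.7%, so a single half-site is common. Of the 9 genes, 7 had windows, 11 in all, and 1 of the 11 held a repeat, with a spacing of 5, in Rarb. The sequence before the Rarres1 start is shown because the choice of genes starts from Rarres1, and the Rarb repeat is shown as the one match. Capitals mark half-sites, in Rarb with the 5 bases between them.

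Rarres1: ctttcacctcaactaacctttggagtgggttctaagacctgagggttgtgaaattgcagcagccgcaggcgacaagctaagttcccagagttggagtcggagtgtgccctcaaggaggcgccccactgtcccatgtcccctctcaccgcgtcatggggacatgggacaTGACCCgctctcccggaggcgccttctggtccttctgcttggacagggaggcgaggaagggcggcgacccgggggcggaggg
Rarb: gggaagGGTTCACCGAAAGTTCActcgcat

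The Rarres1 sequence is the minus strand of chr3:67515524-67515773, the 250 bases just before the start, and its half-site, bases 82 to 77 before the start, is read on the opposite strand. The Rarb stretch is the minus strand of chr14:16575506-16575535, and its repeat lies 53 to 37 bases before the start. These are matches of letters only, and no binding was measured.

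Counts per sample totalled 26362407 to 28154143 for the genes of the table. Ldha stood at 91.8 ± 7.03 CPM (counts scaled to 1000000 per library, with TMM normalization; SD, n = 3) in the LDH knockout and 894 ± 51.3 in its controls, and Acly at 69.9 ± 18.8 in the Acly knockout and 187 ± 4.69 in its controls. Ldhb RNA was not lower in the LDH knockout, at 16 ± 1.16 CPM against 12.4 ± 0.604 in its controls (log2 fold change 0.37, edgeR adjusted p = 0.115). Chondrocyte markers were abundant in every sample, with a summed level of 8589 to 29786 CPM, although Matn1 lay near the floor of 3 counts (0.107 to 0.114 CPM) in the LDH set. Their sum was higher in each knockout than in its controls, at 19821 to 29786 against 10875 to 12616 CPM for LDH and 14251 to 16373 against 8589 to 9373 for Acly. Col2a1 alone made up 60.4% to 83.7% of the sum, and by edgeR 4 of 7 markers tested rose in the LDH knockout (Col2a1, Acan, Col9a1 and Col11a1) and 2 of 8 in the Acly knockout (Col2a1 and Comp). All 8 fibroblast and perichondrium markers were higher in the Acly controls than in the LDH controls by edgeR's quasi-likelihood test. Replicate 2 of the Acly knockout stood apart, with a fibroblast marker sum of 1207 CPM against 3171 and 3222 in the other knockout samples. The summed Y-linked genes were at most 0.0367 CPM in the LDH knockouts and 93, 102 and 0.59 in their controls, so Y-linked reads were seen in that set almost only in 2 of the controls. In the Acly set they were 0.0755, 74.3 and 82.8 in the knockouts and 0.375, 121 and 2.83 in the controls.

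Rarres1 was lower in every knockout sample than in any control, at 32.2% of control in the LDH set and 34.4% in the Acly set. In the LDH set its level was 19.8, 21.1 and 21.8 CPM in the controls and 7.08, 5.66 and 7.49 CPM in the knockouts. The Acly set gave 18.8, 19.2 and 20.9 CPM in the controls and 6.79, 7.38 and 5.87 CPM in the knockouts. All 6 control samples lay above all 6 knockout samples, so the groups did not overlap within or between the sets. Control means were 20.9 ± 0.99 and 19.6 ± 1.13 CPM, and knockout means 6.74 ± 0.956 and 6.68 ± 0.762 CPM (SD, n = 3 each, LDH then Acly). The fitted log2 fold change was -1.63 (SE 0.13) in the LDH knockout and -1.54 (SE 0.14) in the Acly knockout. The fitted difference between these effects was -0.08 (SE 0.18). Since the gene was selected on these values, no test is given for them. In bulk RNA, fewer cells of a type and less RNA per cell cannot be told apart.

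In the LDH set only control replicate 3 shared the low Y-linked level of the knockouts, so Y-linked level and knockout can hardly be told apart there. LDH control replicate 3, with Y-linked genes at 0.59 CPM, had 21.8 CPM of Rarres1, and the controls with Y-linked genes at 93 and 102 CPM had 19.8 and 21.1. With the Y-linked level as a covariate the log2 fold change was -1.72 (SE 0.22) in the LDH set and -1.54 in the Acly set. The part of the Y-linked difference in the Rarres1 values was not tested. Acly knockout replicate 2, low in fibroblast markers, had 7.38 CPM, beside 6.79 and 5.87 in the other knockouts. The chondrocyte marker sum, carried mostly by Col2a1, was higher in the knockouts of each set. The sum of 5 osteoblast markers was lower in the knockouts of each set without overlap. It was 10.2 to 20.3 against 37.5 to 49.5 CPM for LDH and 69.5 to 96.5 against 102 to 112 CPM for Acly. Of these markers, Dmp1 was at no more than 0.243 CPM. In the Acly set only the sum was without overlap, and each marker alone overlapped. Sp7 there stood at 35, 49.7 and 28.7 CPM in knockouts and 33.6, 33 and 36.8 in controls. By edgeR, 1 of 3 osteoblast markers tested fell in the LDH knockout (Sp7) and none of 4 in the Acly knockout, where Bglap had an unadjusted p under 0.05 and was called by DESeq2. The sum of 8 fibroblast and perichondrium markers overlapped in the LDH set (603 to 758 against 490 to 937 CPM) and was lower in the Acly knockouts (1207 to 3222 against 3643 to 4142 CPM). edgeR called none of these 8 in either set, and DESeq2 called Pdgfra in the LDH set and Dcn in the Acly set. By edgeR 3 of the 8 had an unadjusted p under 0.05 in each set. Over all genes tested, 2614 of 13321 in the LDH set and 2211 of 13973 in the Acly set had such a p. The part of these cells in the Rarres1 difference was not tested. Leaving out any 1 sample gave log2 fold changes from -1.71 to -1.52 in the LDH set and from -1.63 to -1.45 in the Acly set.

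**Figure D1:**
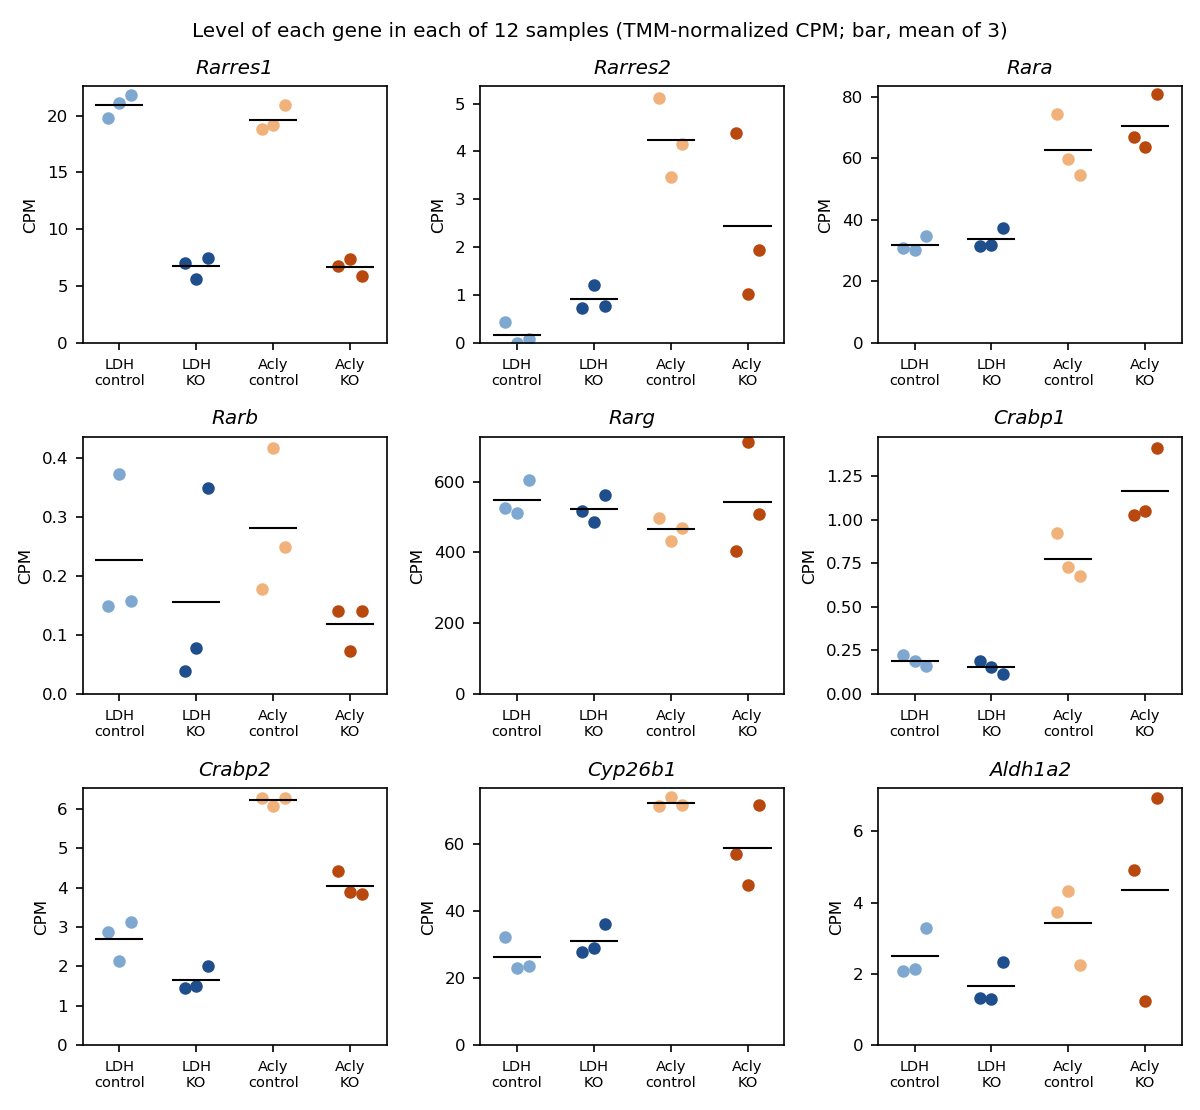
Level of each of the 9 genes in each of the 12 samples, as TMM-scaled CPM on a linear axis from 0, with the 4 groups along the x axis, a point for each sample and a bar for the mean of 3. The 6 knockout points of Rarres1 lie between 5.66 and 7.49 CPM, and the 6 control points between 18.8 and 21.8 CPM.

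In its control comparison, Rarres1 had a log2 fold change of -0.09 (SE 0.12, adjusted p = 0.557, edgeR) for Acly controls over LDH controls. The choice of Rarres1 used these same control samples, so the value is a description, and nothing is read from the test. The log2 fold change was 0.08 without TMM scaling and on FPKM, so its sign depends on the scaling. Of all genes in this comparison, 55.0% (7844 of 14251) passed an adjusted p of 0.05. The groups differ in stage as well as in set, and these cannot be told apart.

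Rarres2 encodes chemerin, a secreted chemoattractant and adipokine that signals through Cmklr1. In the LDH set its level was 0.731, 1.22 and 0.776 CPM in the knockouts and 0.448, 0 and 0.079 CPM in the controls, the counts being 19, 31 and 20 against 12, 0 and 2. The knockouts were all higher than the controls, but every level was low. The summed counts of 70 against 14 gave a ratio of 5.11 per library (95% interval 2.85 to 9.82, counting error only). The gene passed the low-count filter through the knockout group alone, so its fitted log2 fold change of 2.33 (SE 0.73, edgeR adjusted p = 0.122) is a description, and nothing is read from a test of it.

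In the Acly set the levels of Rarres2 were 4.39, 1.02 and 1.94 CPM in the knockouts and 5.11, 3.47 and 4.15 CPM in the controls. Knockout replicate 1 lay inside the control range and the other knockouts below it. The log2 fold change was -0.78 (SE 0.43, edgeR adjusted p = 0.389). Set against each other, the LDH and Acly effects on Rarres2 differed by 3.12 (SE 0.93, edgeR adjusted p = 0.224, DESeq2 adjusted p = 0.0281). This difference rests on the same few LDH control counts, so it is a description, and nothing is read from either test. Fat cell markers summed to 11.9 to 45.5 CPM in the LDH knockout and 1.27 to 2.28 CPM in its controls. The LDH sample with the most Rarres2, knockout replicate 2, also had the highest sum. Knockout replicate 3, the next in Rarres2 at 0.776 CPM, had the lowest sum of the LDH knockouts, 11.9 CPM. Adipoq, Plin1 and Cidec were at no more than 0.485 CPM in the LDH controls and passed the filter through the knockouts. No test of these markers is therefore given. Fat cell marker Lep was at or under 3 counts in all samples. Among the Acly samples, too, the orders by Rarres2 and by fat cell sum differed. Knockout replicate 2, with the least Rarres2, had a fat cell sum of 22.2 CPM, and control replicate 2, with 3.47 CPM of Rarres2, had the lowest, 10.5 CPM. Knockout replicate 2 also had the lowest fibroblast marker sum, 1207 CPM, while the control with the most Rarres2 had the lowest fibroblast sum of the controls, 3643 CPM. The part of these cells in the result was not tested. Cmklr1, the receptor, stood at mean levels of 6.55 TPM (transcripts scaled by length to a fixed total) in controls and 6.82 in knockouts of the LDH set and of 10.5 and 6.84 in those of the Acly set, and its Acly log2 fold change of -0.52 did not pass (edgeR adjusted p = 0.232).

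The receptors were led by Rarg. Per length, Rarg stood at a mean of 340 TPM over the 12 samples and Rara at 30.5 TPM, and Rarg made up 86.7% to 94.9% of the summed Rar level in every sample. Rarb made up 0.00893% to 0.0915%. Rarg levels were 516, 486 and 563 CPM in LDH knockouts and 526, 511 and 606 in LDH controls, with wide overlap. Acly samples gave 404, 711 and 509 CPM in knockouts and 497, 433 and 470 in controls, the highest being knockout replicate 2, the sample low in fibroblast markers. Neither fold change passed, at -0.07 (SE 0.10, edgeR adjusted p = 0.733) for LDH and 0.23 (SE 0.19, edgeR adjusted p = 0.538) for Acly, and the Acly value was -0.03 without that replicate. In cartilage, Rarg without its ligand is known to repress its targets.

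Rara levels were 31.6, 31.9 and 37.5 CPM in LDH knockouts and 30.8, 30.2 and 34.7 in controls, and 66.9, 63.6 and 80.9 CPM in Acly knockouts and 74.3, 59.7 and 54.4 in controls. The groups overlapped in both sets, and the log2 fold changes were 0.08 (SE 0.10, edgeR adjusted p = 0.722) and 0.18 (SE 0.13, edgeR adjusted p = 0.5). Rarb, itself a known target of retinoic acid, was near the floor, at 1 to 12 counts a sample and at or under 3 counts in 3 samples. It was below the low-count filter of both comparisons, although the Acly groups did not overlap, and the summed counts of knockout and control were 12 and 18 for LDH (ratio 0.681, 95% interval 0.299 to 1.49) and 10 and 24 for Acly (ratio 0.422, 0.18 to 0.915), with counting error only. Of the partner receptors, Rxrb and Rxra had mean levels of 53.3 to 69.2 TPM and 35.4 to 41.2 TPM over the 4 groups.

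**Figure D2:**
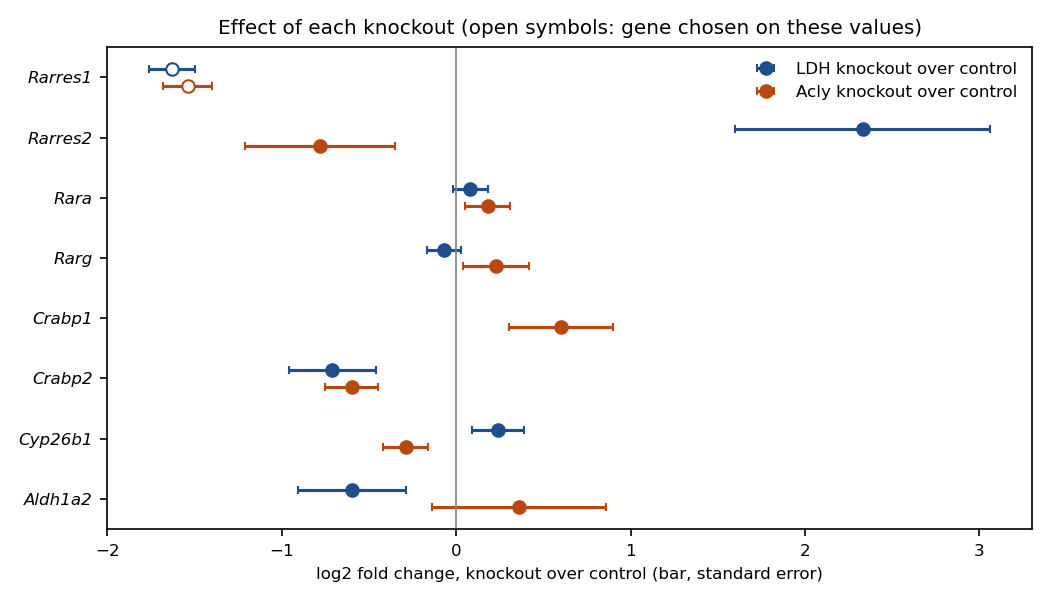
Log2 fold change of knockout over control for each gene past the low-count filter in each set, with bars for the standard error and open symbols for Rarres1, which was chosen on these values. Rarres1 lies at -1.63 and -1.54, below every other point, and Rarres2 has wide bars, at 2.33 and -0.78.

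Crabp2, the binding protein that carries retinoic acid to the receptors, lay lower in both knockouts without passing the test. Its levels were 1.46, 1.49 and 2.02 CPM in LDH knockouts and 2.87, 2.13 and 3.12 in controls, and 4.42, 3.89 and 3.85 CPM in Acly knockouts and 6.29, 6.08 and 6.29 in controls. The groups did not overlap in either set. The log2 fold change was -0.71 (SE 0.25, edgeR adjusted p = 0.156), or 61.3% of control, for LDH and -0.60 (SE 0.15, edgeR adjusted p = 0.216), or 65.9% of control, for Acly. The adjusted p ran from 0.0843 to 0.41 over the LDH alternatives and from 0.103 to 0.715 over those for Acly, and no alternative passed.

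Groups without overlap are common here, at 24.3% of genes tested in the LDH set and 22.1% in the Acly set, so the lack of overlap alone says little. Among the members past the filter, 3 of 7 had no overlap in the LDH set (Rarres1, Rarres2 and Crabp2) and 3 of 8 in the Acly set (Rarres1, Crabp1 and Crabp2). Besides Rarres1, none of 6 members was called by edgeR in the LDH set, where 2.49% of all genes were (332 of 13321). Rarres2 is among the 6, and limma on log2(FPKM + 1) called it. Nothing is read from its tests, since the filter kept it through the knockouts. The others had adjusted p from 0.156 to 0.733 by edgeR. Of the 6, 2 members (Rarres2 and Crabp2) had an unadjusted p under 0.05, as did 2614 of all 13321 genes. DESeq2 called none. None of 7 was called in the Acly set, where 0.136% were (19 of 13973), with adjusted p from 0.216 to 0.73 by edgeR. Of these, 1 member (Crabp2) had an unadjusted p under 0.05, as did 2211 of all 13973 genes, and DESeq2 and limma called none. In the difference between the effects, where 0.161% of genes passed (23 of 14251), none of 7 was called by edgeR. Rarres2 and Crabp1 are among the 7, with few counts in the LDH controls, so nothing is read from their tests. The others had adjusted p from 0.334 to 0.903. Of the 7, 2 (Rarres2 and Cyp26b1) had an unadjusted p under 0.05, as did 1855 of all 14251 genes, and limma called none. DESeq2 called Rarres2, from which nothing is read because of its few LDH control counts.

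Crabp1, the second binding protein, stood at 0.192, 0.157 and 0.116 CPM in LDH knockouts and 0.224, 0.187 and 0.158 in controls, below the filter. Its Acly levels were 1.03, 1.05 and 1.41 CPM in knockouts and 0.923, 0.729 and 0.675 in controls, all knockouts being above all controls. The log2 fold change of 0.60 (SE 0.30) did not pass (edgeR adjusted p = 0.357). Crabp1 and Crabp2 therefore lay on opposite sides of their Acly controls, and Crabp2 made up 75.4% ± 4.37 of their summed TPM in the Acly knockout against 87.6% ± 1.74 in its controls (SD, n = 3).

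Cyp26b1 was in practice the whole of the Cyp26 family, with 98.5% to 100% of its summed TPM in every sample. Its levels were 27.7, 29.1 and 36.3 CPM in LDH knockouts and 32.3, 22.9 and 23.5 in controls, and 57.1, 47.8 and 71.8 CPM in Acly knockouts and 71.4, 74.3 and 71.8 in controls. The highest LDH control lay inside the knockout range, and the highest Acly knockout, at 71.8 CPM, lay just above the lowest control, at 71.4 CPM. The log2 fold change was 0.24 (SE 0.15, edgeR adjusted p = 0.41) for LDH and -0.29 (SE 0.13, edgeR adjusted p = 0.328) for Acly, with a difference of 0.54 (SE 0.22, edgeR adjusted p = 0.334).

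Aldh1a2, which makes retinoic acid from retinaldehyde, was low. Its levels were 1.31, 1.3 and 2.33 CPM in LDH knockouts and 2.09, 2.13 and 3.28 in controls, and 4.92, 1.24 and 6.93 CPM in Acly knockouts and 3.73, 4.31 and 2.24 in controls. The groups overlapped in both sets, and the log2 fold change was -0.60 (SE 0.31, edgeR adjusted p = 0.314) for LDH and 0.36 (SE 0.50, edgeR adjusted p = 0.73) for Acly. Without Acly knockout replicate 3, the highest sample, the latter was -0.14. Among the 6 Acly samples, that replicate also had the highest sum of mesothelium markers, 58.7 CPM, and replicate 2, with the least Aldh1a2, the lowest, 10.5 CPM, while in the LDH set the sample with the most Aldh1a2, control replicate 3, had the lowest sum, 0.118 CPM. Mesothelium, the lining of the chest cavity, is known for Aldh1a2, and its part in these values was not tested. The ratio of Cyp26b1 to Aldh1a2, breakdown to synthesis, was 9.81, 10.4 and 7.26 in LDH knockouts and 7.24, 5.03 and 3.35 in controls on the TPM scale, and 5.48, 18.1 and 4.87 in Acly knockouts against 9.01, 8.12 and 15.1 in controls. The LDH groups just failed to meet, and the Acly groups overlapped.

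**Figure D3:**
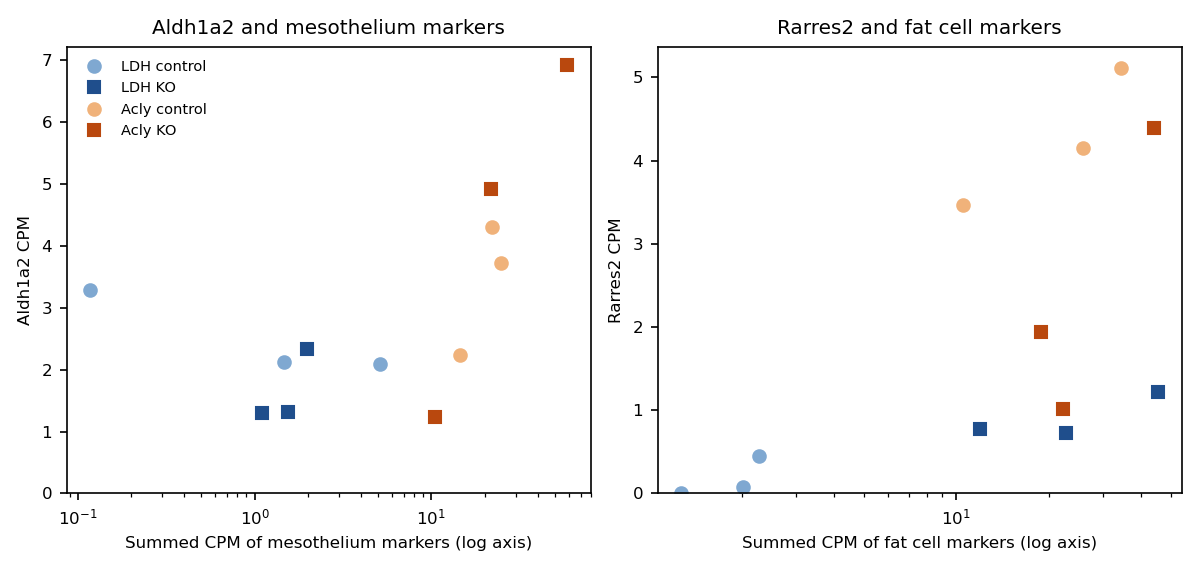
Level of Aldh1a2 and of Rarres2 in each sample (CPM, linear axis from 0) against the summed CPM of mesothelium or fat cell markers in it (log axis), with symbols for the 4 groups. In the Acly set, knockout replicate 3 is highest in both Aldh1a2 (6.93 CPM) and mesothelium markers (58.7 CPM).

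The rest of the pathway, taken from lists of 50 further genes in the table, gave 3 calls in the LDH set, all higher, of 36 tested, against the shares of all genes given above. In the Acly set edgeR called none of 39, DESeq2 called Rbp4, and limma called none. By edgeR 10 of the 39 had an unadjusted p under 0.05, beside 2211 of 13973 over all genes. The median log2 fold change of these genes was 0.10 in the LDH set and 0.06 in the Acly set, beside 0.01 and -0.00 over all genes. Rbp4, the carrier of retinol in blood, rose in the LDH knockout, from 9.55, 7.41 and 8.8 CPM in controls to 20.3, 30 and 17.1 CPM (log2 fold change 1.39, SE 0.20, edgeR adjusted p = 0.0105). Its Acly values were 38.9, 29.1 and 27.1 CPM in knockouts and 21.6, 20.5 and 17.8 in controls, also without overlap, but the log2 fold change of 0.68 (SE 0.15) did not pass (edgeR adjusted p = 0.159). Fat cells also make Rbp4, and the fat cell marker sum, given above for Rarres2, was higher in the LDH knockout. Its part in the rise was not tested. With the Y-linked level as a covariate the LDH log2 fold change was 1.26 (edgeR adjusted p = 0.334), and without LDH control replicate 3 it was 1.41 (edgeR adjusted p = 0.0557), so the size of the rise stayed near its first value while the call was lost.

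Dhrs9, a retinol dehydrogenase, rose in the LDH knockout from 4.03, 5.73 and 5.37 to 12.5, 12.4 and 8.65 CPM (log2 fold change 1.15, SE 0.19, edgeR adjusted p = 0.0196), with no such value in the Acly set (0.10, edgeR adjusted p = 0.853). The difference between the effects was 1.06 (edgeR adjusted p = 0.263), so it was not shown to be particular to the LDH set. Tgm2, a transglutaminase induced by retinoic acid, rose in the LDH knockout from 58.2, 47 and 52.5 to 89.2, 91.8 and 66.1 CPM (log2 fold change 0.65, SE 0.13, edgeR adjusted p = 0.0358). Its Acly levels were 39.9, 45.6 and 46 CPM in knockouts and 37.9, 34 and 33 in controls, also without overlap. That log2 fold change of 0.34 (SE 0.10) did not pass (edgeR adjusted p = 0.24), nor did the difference between the effects, 0.32 (edgeR adjusted p = 0.448). Both LDH calls, of Dhrs9 and Tgm2, were lost under several alternatives, the Y-linked covariate among them. With that covariate the log2 fold change was 0.94 for Dhrs9 (edgeR adjusted p = 0.379) and 0.59 for Tgm2 (edgeR adjusted p = 0.404).

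Agbl2, a carboxypeptidase reported to bind Rarres1 protein, fell in the LDH knockout, from 28.2, 23.5 and 24.8 to 18.8, 18.2 and 14.3 CPM (log2 fold change -0.58, SE 0.13, edgeR adjusted p = 0.0493). Agbl2 levels for Acly were 6.83, 5.75 and 5.9 CPM in knockouts and 11, 13.3 and 14.8 in controls, a log2 fold change of -1.07 (SE 0.16) that did not pass (edgeR adjusted p = 0.0561). The Acly value passed in 3 of 14 alternatives, namely with DESeq2 (adjusted p = 6.46e-06), without the low-count filter (edgeR adjusted p = 0.0312) and without Acly knockout replicate 2 (edgeR adjusted p = 0.0183). The LDH call was lost in 8 of 14 alternatives, over which its log2 fold change stayed between -0.65 and -0.46. Cpe, a carboxypeptidase of the secretory pathway, rose in the Acly knockout from 153, 145 and 151 to 242, 237 and 238 CPM (log2 fold change 0.69, SE 0.08, edgeR adjusted p = 0.0256), against -0.17 in the LDH set (edgeR adjusted p = 0.544). The difference between the effects, -0.85 (SE 0.17), did not pass (edgeR adjusted p = 0.0799), and the Acly call was lost in 7 of 14 alternatives, over which its log2 fold change stayed between 0.63 and 0.71.

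**Figure D4:**
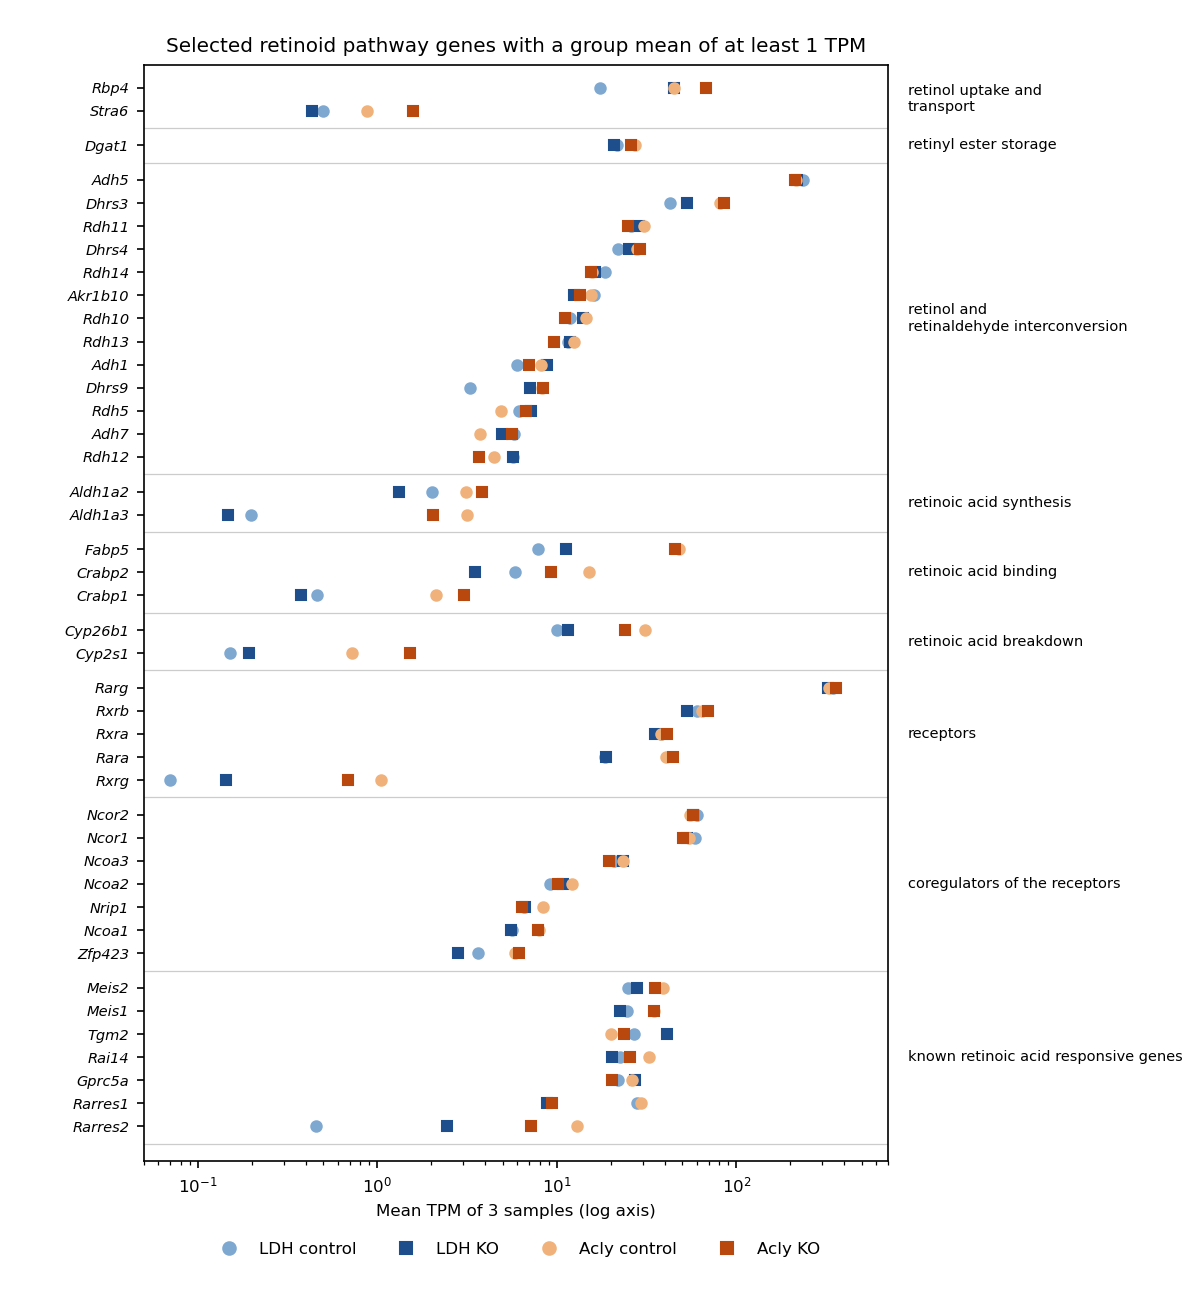
Mean TPM of 3 samples (log axis) for selected retinoid pathway genes with a group mean of at least 1 TPM, arranged by role, with a symbol for each of the 4 groups. Rarg, at 323 to 359 TPM, is the most abundant member, and Adh5, at 213 to 236 TPM, the most abundant of the dehydrogenases.

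In the control comparison, 3 members with ample counts in both groups were higher in the Acly controls. Cyp26b1 was 2.76 times as high (log2 fold change 1.47, SE 0.16, edgeR adjusted p = 8.13e-06), Crabp2 2.29 times (1.20, SE 0.19, edgeR adjusted p = 0.000148) and Rara 1.97 times (0.98, SE 0.13, edgeR adjusted p = 3.43e-05). Crabp1 and Rarres2 had few counts in the LDH controls and passed the filter through other groups, so they are given as counts, with no test. Crabp1 had 66 counts in the Acly controls and 15 in the LDH controls, a ratio of 4.08 per library (95% interval 2.3 to 7.69, counting error only). Rarres2 had 361 and 14 counts, a ratio of 23.9 (14.1 to 44.1, counting error only). Rarg (-0.23, edgeR adjusted p = 0.228) and Aldh1a2 (0.46, edgeR adjusted p = 0.435) were not called. The calls of Cyp26b1, Crabp2 and Rara held in all 12 alternatives, but a call was the rule rather than the exception in this comparison, at the 55.0% given above.

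Beyond the members, Aldh1a3, a further retinaldehyde dehydrogenase, stood at 5.58, 6.53 and 3.66 CPM in the Acly controls and 0.336, 0.337 and 0.434 CPM in the LDH controls. It passed the filter through the Acly samples alone, so no test is given. Fabp5, a further carrier of retinoic acid, was higher in the Acly controls by 2.44 on the log2 scale (SE 0.24, edgeR adjusted p = 3.09e-06). The summed fibroblast markers were 3643 to 4142 CPM in the Acly controls and 490 to 937 CPM in the LDH controls. Skeletal muscle (186 to 252 against 11.9 to 24.5 CPM) and endothelium (82.6 to 97.5 against 9.55 to 15.1 CPM) sums were higher too. So were those of mesothelium, fat cells, osteoblasts and red blood cells, while macrophage sums overlapped and the chondrocyte sum was lower. That lower sum was carried by Col2a1, the only chondrocyte marker called lower by edgeR. It called 6 of 8 higher in the Acly controls (Acan, Col9a1, Col11a1, Hapln1, Comp and Matn1, the last near the floor in the LDH set). Of 5 macrophage markers, edgeR called 3 higher (Adgre1, Cd68 and Csf1r) and 2 lower (Cd14 and Lyz2). The part of any of these cells in the values was not tested.

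The genes most like Rarres1 in their pattern were sought by Pearson's r of log2 CPM over the 12 samples, each set centred on its own mean, among the 10574 genes whose mean level reached 5 CPM. As Rarres1 was chosen on this contrast, r is a description. The 5 highest were Tmcc1 (0.958), Tpd52 (0.951), Hbp1 (0.941), Xbp1 (0.936) and Grpel2 (0.936), all lower in both knockouts. Their log2 fold changes were smaller than that of Rarres1, from -0.62 for Xbp1 to -0.21 for Grpel2 in the LDH set and from -0.44 for Xbp1 to -0.14 for Grpel2 in the Acly set. Xbp1 encodes a transcription factor of the unfolded protein response, with a mean of 209 CPM in LDH controls and 136 in knockouts, and 129 and 93.9 CPM in the Acly set. Among the members with at least 5 CPM, r with Rarres1 was -0.419 for Rara, -0.068 for Rarg and 0.020 for Cyp26b1.

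The 5 genes on each side of Rarres1 in RefSeq order were compared in the same fits, a set chosen after values were seen. edgeR called none of the 7 tested in the LDH set or the 8 tested in the Acly set, and DESeq2 and limma called none in either. By edgeR 2 (Mfsd1 and Ift80) and 1 (Ift80) had an unadjusted p under 0.05, beside the counts over all genes given above. Ift80 was higher in the LDH knockout (0.23, SE 0.10) and lower in the Acly knockout (-0.36, SE 0.12). The difference between these effects, 0.60 (SE 0.15), was called by DESeq2 but not by edgeR (adjusted p = 0.154) or limma. Lxn, which encodes latexin, the relative of Rarres1, had log2 fold changes of 0.12 (SE 0.10, edgeR adjusted p = 0.55) and 0.22 (SE 0.14, edgeR adjusted p = 0.441), at mean levels of 40.6 and 43.4 TPM (controls and knockouts) for LDH and 60.6 and 65.7 TPM for Acly. Mfsd1 was lower in both sets without overlap, at -0.24 (SE 0.09, edgeR adjusted p = 0.166) and -0.20 (SE 0.09, edgeR adjusted p = 0.333). Il12a and 1110032F04Rik were below the filter.

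**Figure D5:**
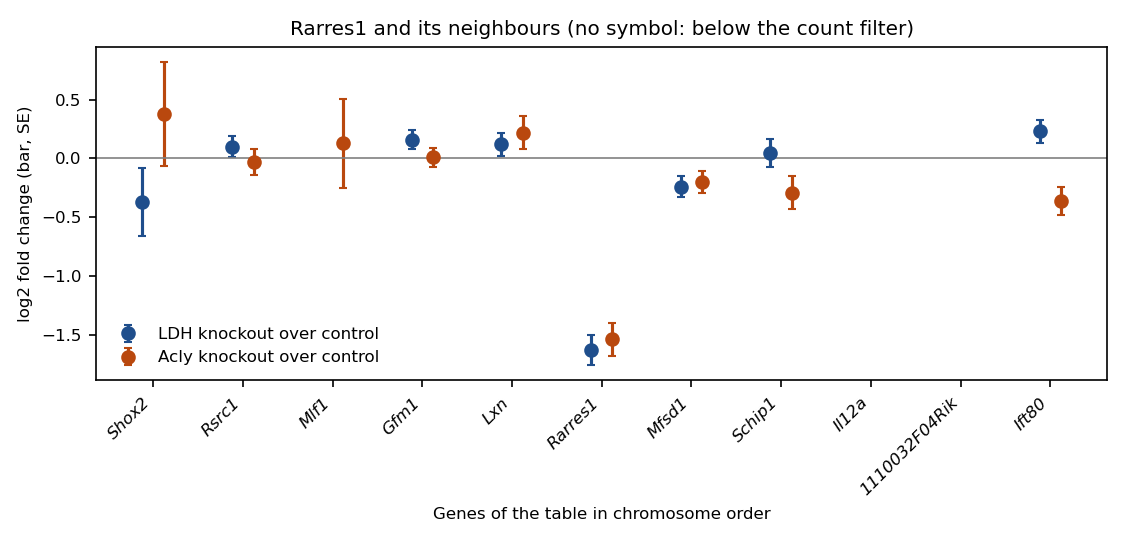
Log2 fold change of knockout over control (bars, SE) for Rarres1 and its neighbours in RefSeq gene order, with a symbol for each set. Rarres1 lies at -1.63 and -1.54, and the neighbours between -0.37 and 0.38.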

How the data were processed

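RNA-seq of 12 samples was read from 1 table of 17922 genes holding the authors' estimated counts, FPKM and TPM per sample, per the file headers; 7.32% to 8.16% of the counts were not whole and were rounded. HISAT2 2.0.4 and mm9 appear in the submitters' processing notes; the counter and annotation are not given in the sources used here. Each knockout was compared with its controls in edgeR 4.0.16 (R 4.3.3) on its own 6 samples, with TMM scaling, filterByExpr, the quasi-likelihood F test and Benjamini-Hochberg adjusted p at 0.05. The difference of effects and the control comparison used all 12 samples. Standard errors came from the log2 fold change and F. Strand was not stated, so overlapping and antisense genes cannot be told apart. Of 123 list genes, 120 were in the table. Totals were 26362407 to 28154143 counts, so 3 counts are 0.107 to 0.114 CPM; intervals cover counting error only. Alternatives used DESeq2 1.42.0, limma 3.58.1, other scaling, no filter, a replicate block, a Y-linked covariate and samples left out. Named beyond the 9 genes were list genes passing in a knockout or difference, list genes with an absolute log2 of at least 1 and mean CPM of at least 1 in the controls, each list's most abundant gene, the 5 genes most like Rarres1, and neighbours chosen after values were seen; some genes that this rule names are not reported here. Fits were tested on simulated data. The members and lists were chosen with earlier results of these data known.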

Additional observations from a re-analysis of the deposited data

Results flagged for a closer look

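Rdh10, which oxidises retinol to retinaldehyde, was higher in every LDH knockout sample than in its controls and lower in every Acly knockout sample than in its controls. The levels were 16, 18.2 and 18.9 CPM against 15.7, 14.8 and 13.8 in the LDH set and 13.9, 12.3 and 12.7 CPM against 16.8, 15.2 and 16.7 in the Acly set. The difference between the effects was 0.58 (SE 0.15) on the log2 scale and did not pass edgeR's test (adjusted p = 0.167, 0.0597 to 0.402 over the alternatives). Ncoa3, a coactivator of nuclear receptors, had the same pattern, with a difference of 0.29 (SE 0.10, edgeR adjusted p = 0.273). Both genes were chosen after their values were seen.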

How the results depend on the processing

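The count of genes called depended on the setting. For the LDH set it was 332, then 902 with DESeq2, 3 with the Y-linked covariate (1755 at an unadjusted p under 0.05), and 95 to 1068 with 1 sample left out (95 without LDH control replicate 3, 1068 without LDH knockout replicate 3). For the Acly set it was 19, then 253 with DESeq2, 32 without the low-count filter, 11 without TMM, 6 with the Y-linked covariate, and 0 to 132 with 1 sample left out. It was 132 without Acly knockout replicate 2, and 0 without Acly control replicate 1 or 3 (edgeR, unadjusted p under 0.05 in 2323 and 1008 genes). The share of Acly calls that were higher was 42.1%, and 27.3% without TMM. For the difference of effects it was 23, then 213 with DESeq2 and 5 to 143 with 1 sample left out, 143 without LDH knockout replicate 3. In the control comparison the calls numbered 7844 and 6705 to 7127 with 1 sample left out, of which 53.3% were higher, and 72.4% without TMM, where the median over all genes lay at 0.19 on the log2 scale.

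Samples with the same replicate number did not deviate together (correlations of 0.0479, -0.13 and -0.0184 in the LDH set and 0.0204, -0.187 and -0.194 in the Acly set), so the numbers are no evidence of pairing. With a replicate block the calls numbered 362 for LDH, 8 for Acly and 5 for the difference, and the Rarres1 log2 fold change was -1.64 and -1.54.

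The Rarres1 values ranged from -1.72 to -1.47 in the LDH set and from -1.63 to -1.43 in the Acly set over 14 alternatives each. Its difference of effects ranged from -0.16 to 0.03 with 1 sample left out. Signs near 0 turned: with the Y-linked covariate, Rara was -0.11 and Lxn -0.04 in the LDH set; Crabp2 was 0.06 in the difference on log2(FPKM + 1); Rarres1 was 0.08 in the control comparison without TMM and on FPKM. With 1 sample left out, LDH values ran from -0.01 to 0.14 for Rara and -0.13 to 0.01 for Rarg, Acly values from -0.03 to 0.41 for Rarg, -0.14 to 0.79 for Aldh1a2 and -0.15 to 0.32 for Dhrs9, and differences from -0.23 to 0.02 for Rara and -0.26 to 0.02 for Crabp2. The cause was not tested.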
